A study of Homo sapiens and Mus musculus with 20 samples.

Results

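The replication-dependent histone genes of chromosome 6 are a dense array of short genes that encode the linker histone H1 and the core histones H2A, H2B, H3 and H4. They were taken here as the protein-coding genes between 26.0 and 28.0 Mb of chromosome 6 (GRCh38) whose symbol starts with H1-, H2AC, H2BC, H3C or H4C. This gave 53 of 19974 protein-coding genes on the autosomes and chromosome X: 6 H1, 11 H2A, 14 H2B, 10 H3 and 12 H4 genes. A gene was called marked when a deposited region lay within 1 kb of its body.

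The study mapped histone marks and KDM6A by chromatin immunoprecipitation and sequencing in multiple myeloma lines. KDM6A, also called UTX, is a JmjC-domain demethylase that removes methyl groups from lysine 27 of histone H3 and is a subunit of complexes that methylate lysine 4 of histone H3. ARP1 is a human myeloma line. It was profiled as KDM6A wild type (WT), KDM6A knock out (KO) and KDM6A JmjD-dead, the last carrying H1146E by its title, a change in the demethylase domain. All 3 genotypes had H3K27ac, H3K27me3 and input libraries, while H3K4me1 was limited to WT and KO. The KDM6A antibody was used in ARP1 WT and KO and in a second myeloma line, KARPAS, labelled KDM6A wild type. An HA antibody was used in ARP1 labelled wild type, called untagged here because its title names no tag. It was also used in an HA-tagged ARP1 line whose genotype label reads KDM6A knock out. The labels do not say whether any line is a single clone. Each group had 1 library, so no value below carries a replicate error and no difference between genotypes was tested.

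These genes are transcribed mainly in S phase, when new chromatin needs new histone. Their factors gather in a nuclear compartment called the histone locus body around the protein NPAT. Their messages end in a stem-loop in place of a poly(A) tail, bound by SLBP. Acetylation of H3 lysine 27 marks active promoters and enhancers, and monomethylation of lysine 4 is a mark of enhancers. Trimethylation of lysine 27 marks Polycomb-repressed chromatin. Many copies encode nearly identical proteins, and reads that match several copies can be split or dropped, so values of single members are uncertain. Among 48 promoter windows, 5 pairs that did not overlap shared a stretch of 50 identical bases, 4 of them between H2BC13, H2AC13, H2AC14 and H2BC14 and 1 between H4C11 and H4C12.

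The members fell into 3 sub-clusters wherever neighbours lay over 200 kb apart. The first spanned chr6:26017032-26285534 with 32 genes, the second chr6:27132316-27147562 with 5, and the third chr6:27807479-27893891 with 16. Members were short, with a median body of 487 bp against 24170.5 bp over all genes, and 5 members were over 1 kb. A rule on gene bodies therefore gives an average gene far more room for a region than it gives a histone gene. For this reason marks were also counted over a promoter window of 300 bases, 250 before to 50 after the start, which was on hand for 48 members and 15812 genes in all.

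H2A and H2B genes often stand back to back. There were 8 such pairs of adjacent members, and all 8 were divergent, with 193 to 247 bp between the gene bodies, so that 1 short stretch lies before the starts of both. H2BC12 and H2AC12, with H4C9 inside the H2BC12 body, were not among the 8 and are counted apart. The sequences below are from RefSeq (GRCh38.p14), which held promoters for 48 of 53 members. Capitals mark 5 motifs known from histone promoters, searched on both strands. They are the TATA box written TATAAA, the CCAAT box, the octamer written ATTTGCAT, the H1 box written AAACACA, and the H4 motif written GGTCCG. None of these contains another. The stretches between the bodies of 3 pairs are shown as examples of different region layouts, chosen after their values were seen. H2BC11 and H2AC11 (chr6:27132796-27133042, plus strand) lay under the best-ranked H3K27ac region of all members. At H2BC4 and H2AC6 (chr6:26123927-26124171, plus strand) the JmjD-dead H3K27ac regions stopped inside the stretch. H2BC8 and H2AC8 (chr6:26216689-26216920, plus strand) carried H3K27ac and H3K4me1 in WT and no HA region.
H2BC11-H2AC11: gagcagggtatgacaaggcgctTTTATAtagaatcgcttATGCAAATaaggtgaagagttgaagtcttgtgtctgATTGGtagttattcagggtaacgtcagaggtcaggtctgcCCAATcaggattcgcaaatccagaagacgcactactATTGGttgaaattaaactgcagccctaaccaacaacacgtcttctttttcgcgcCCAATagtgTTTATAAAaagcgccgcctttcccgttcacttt
H2BC4-H2AC6: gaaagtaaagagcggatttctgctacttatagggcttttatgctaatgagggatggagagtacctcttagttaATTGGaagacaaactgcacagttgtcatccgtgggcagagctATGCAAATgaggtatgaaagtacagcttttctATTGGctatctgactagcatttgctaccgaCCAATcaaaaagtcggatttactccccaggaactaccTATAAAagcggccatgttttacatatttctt
H2BC8-H2AC8: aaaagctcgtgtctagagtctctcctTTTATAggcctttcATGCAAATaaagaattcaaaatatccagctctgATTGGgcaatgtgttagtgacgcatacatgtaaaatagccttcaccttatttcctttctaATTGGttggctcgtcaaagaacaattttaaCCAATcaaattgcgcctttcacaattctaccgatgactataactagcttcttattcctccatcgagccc

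Single genes are shown by the 250 bases before the start. H4C8 (chr6:26285535-26285784, minus strand) and H1-3 (chr6:26234988-26235237, minus strand) had high-ranking regions. H2BC3 (chr6:26043714-26043963, minus strand) and H3C3 (chr6:26045134-26045383, plus strand) had no region in any list, and H1-6 (chr6:26108136-26108385, minus strand), the testis H1, had one in KO H3K27ac alone.
H4C8: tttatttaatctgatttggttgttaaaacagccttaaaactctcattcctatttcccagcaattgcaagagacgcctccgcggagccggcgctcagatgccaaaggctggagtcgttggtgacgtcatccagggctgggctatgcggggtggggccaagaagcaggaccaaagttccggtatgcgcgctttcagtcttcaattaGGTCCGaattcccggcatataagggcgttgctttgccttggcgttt
H1-3: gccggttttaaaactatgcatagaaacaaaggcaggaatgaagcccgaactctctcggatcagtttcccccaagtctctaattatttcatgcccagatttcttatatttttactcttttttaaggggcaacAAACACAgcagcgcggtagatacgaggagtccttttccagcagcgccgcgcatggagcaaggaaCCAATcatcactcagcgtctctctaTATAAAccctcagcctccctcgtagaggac
H2BC3: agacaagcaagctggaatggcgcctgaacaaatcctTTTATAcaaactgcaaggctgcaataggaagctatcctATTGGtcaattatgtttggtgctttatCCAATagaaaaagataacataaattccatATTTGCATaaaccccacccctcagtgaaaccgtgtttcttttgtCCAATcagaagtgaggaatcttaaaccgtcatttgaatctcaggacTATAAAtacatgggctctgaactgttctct
H3C3: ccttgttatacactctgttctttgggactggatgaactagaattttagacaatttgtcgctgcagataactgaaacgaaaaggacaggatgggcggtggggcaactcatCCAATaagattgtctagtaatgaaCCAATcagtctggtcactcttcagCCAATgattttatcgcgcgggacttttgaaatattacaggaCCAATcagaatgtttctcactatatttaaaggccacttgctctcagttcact
H1-6: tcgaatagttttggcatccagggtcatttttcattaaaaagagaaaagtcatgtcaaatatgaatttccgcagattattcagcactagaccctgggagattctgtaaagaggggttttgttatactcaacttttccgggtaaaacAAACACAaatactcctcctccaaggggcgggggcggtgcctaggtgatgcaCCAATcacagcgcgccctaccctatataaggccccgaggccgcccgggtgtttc

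The motifs followed the histone class. CCAAT was in 41 of 48 member windows (85.4%, against 36.3% of all 15812 windows), including all 6 H1, 10 H2A, 14 H2B and 8 H3 windows but 3 of 10 H4 windows. TATAAA was in 31 (64.6%, against 9.64%). The octamer ATTTGCAT was in 20 (41.7%, against 1.70%): 8 of 10 H2A and 11 of 14 H2B windows, and 1 H3 window. That H3 window belongs to H3C4, whose annotated start is that of the H2A gene H2AC7. The H1 box AAACACA was in all 6 H1 windows and in no other member window (4.25% of all). GGTCCG was in 9 of 10 H4 windows and 1 H3 window (14.5% of all). Windows of members with and without H3K27ac in WT both held TATAAA (26 of 40 and 5 of 8) and CCAAT (34 of 40 and 7 of 8), and the octamer was in 19 of 40 and 1 of 8, the latter H2BC3. These are matches of letters in a window and say nothing of what binds there.

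**Figure D1:**
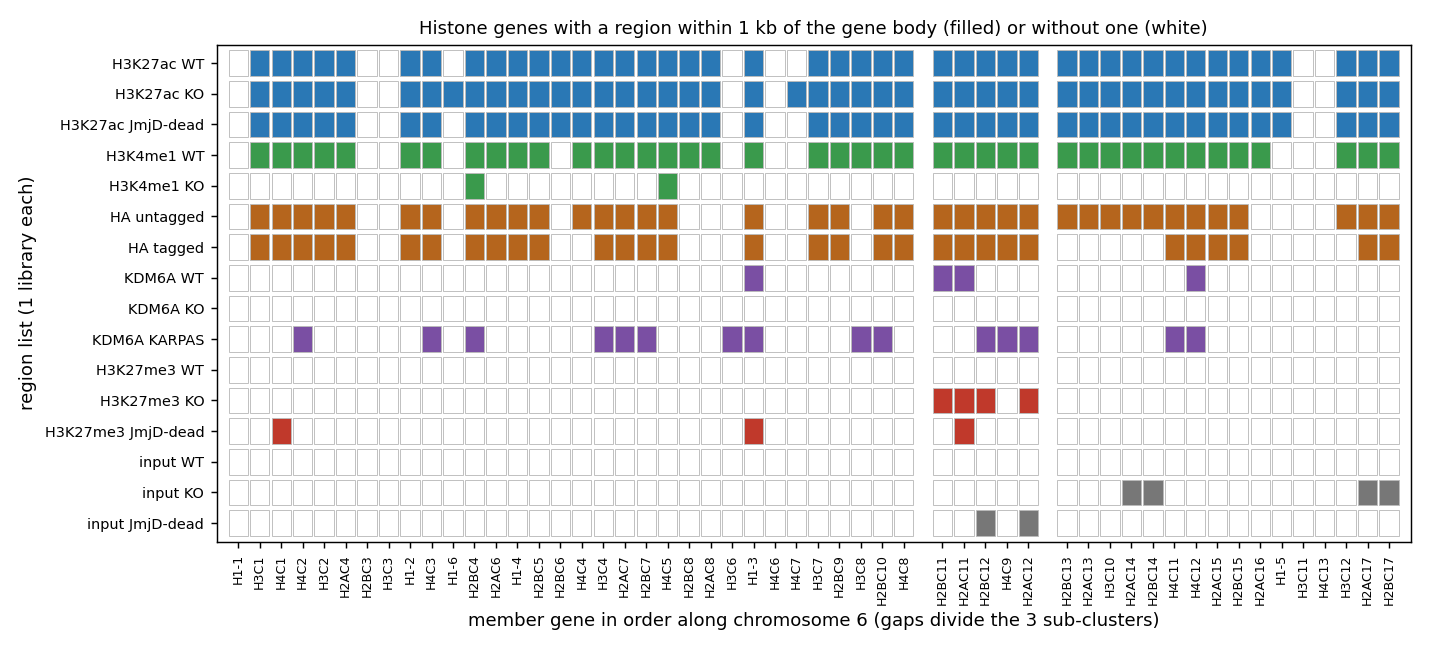
Each column is 1 of 53 histone genes in order along chromosome 6 and each row 1 deposited list; a filled box means a region within 1 kb of the gene body, coloured by antibody. H3K27ac filled 44, 46 and 44 boxes in WT, KO and JmjD-dead, H3K4me1 fell from 42 boxes in WT to 2 in KO, and the KDM6A antibody filled 4 in ARP1 WT and 0 in ARP1 KO.

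H3K27ac marked most members in every genotype. The WT list marked 44 of 53 members, the KO list 46 and the JmjD-dead list 44, against 67.5%, 69.9% and 67.8% of all genes. Over promoter windows the counts were 36, 36 and 37 of 48 (75%, 75% and 77.1%), against 55.2%, 56.6% and 55.3% of all windows. No member marked in WT was unmarked in KO or in JmjD-dead (0 of 44 in each), where 2.1% and 2.65% of all genes marked in WT were unmarked. KO and JmjD-dead were compared with the same WT library.

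Of the 9 members unmarked in WT, 2 had a region in KO, H1-6 and H4C7, where 11.6% of all unmarked genes gained one. The H1-6 region was 298 bp wide with a fold enrichment of 3.33, and the H4C7 region was 160 bp wide with 3.74. Fold enrichment is the authors' value per region, set against the genome-wide level of the same library, and is read here only within its list. They ranked 71784 and 63314 of 76242 KO regions, where rank 1 is the highest q-value score, so both were among the weakest of their list. JmjD-dead gained none (6.33% of all genes). The 7 members unmarked in all 3 lists were H1-1, H2BC3, H3C3, H3C6, H4C6, H3C11 and H4C13.

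The first sub-cluster had 25, 27 and 25 of 32 members marked in WT, KO and JmjD-dead, the second 5 of 5 in each, and the third 14 of 16 in each. By class, WT marked 11 of 11 H2A, 13 of 14 H2B, 7 of 10 H3, 9 of 12 H4 and 4 of 6 H1 genes. H2BC3 was the H2B gene left out, next to the equally unmarked H3C3.

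Where they were marked, the histone genes ranked high. The median best region of the 44 marked members ranked 1003 of 69127 in WT, against 7978.5 over all marked genes. In KO the medians were 1086.5 and 7661 of 76242, and in JmjD-dead 1353.5 and 7976 of 74063. Neighbours share regions, so the 44 members of WT rest on 27 distinct regions in WT, against 28 in KO (46 members) and 31 in JmjD-dead. The regions were wide, with a median of 3483 bp in WT against 487 bp over the list.

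The best-ranked region of the members in each genotype was the one over the second sub-cluster. In WT a single region of 22.8 kb covered H2BC11, H2AC11, H2BC12, H4C9 and H2AC12, with rank 58 and a fold enrichment of 177. In KO the region was 23.2 kb wide, ranked 53 and had a fold enrichment of 159. In JmjD-dead it was split into a region of 20.9 kb with rank 69 and fold enrichment 170 and a smaller one, with the break between H2BC12 and H2AC12. Next in WT came the region of 11996 bp over H4C12, H2AC15 and H2BC15 (rank 81, fold enrichment 159). It ranked 156 in KO (121) and 91 in JmjD-dead (158). H4C8 followed in WT at rank 143 (139), ranked 106 in KO (131) and 132 in JmjD-dead (139). H3C7 and H2BC9 shared a region that ranked 154 in WT (137), then 167 (119) and 121 (141) in the KO and JmjD-dead lists. These 4 stretches held the 4 highest ranks among members in all 3 lists.

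**Figure D2:**
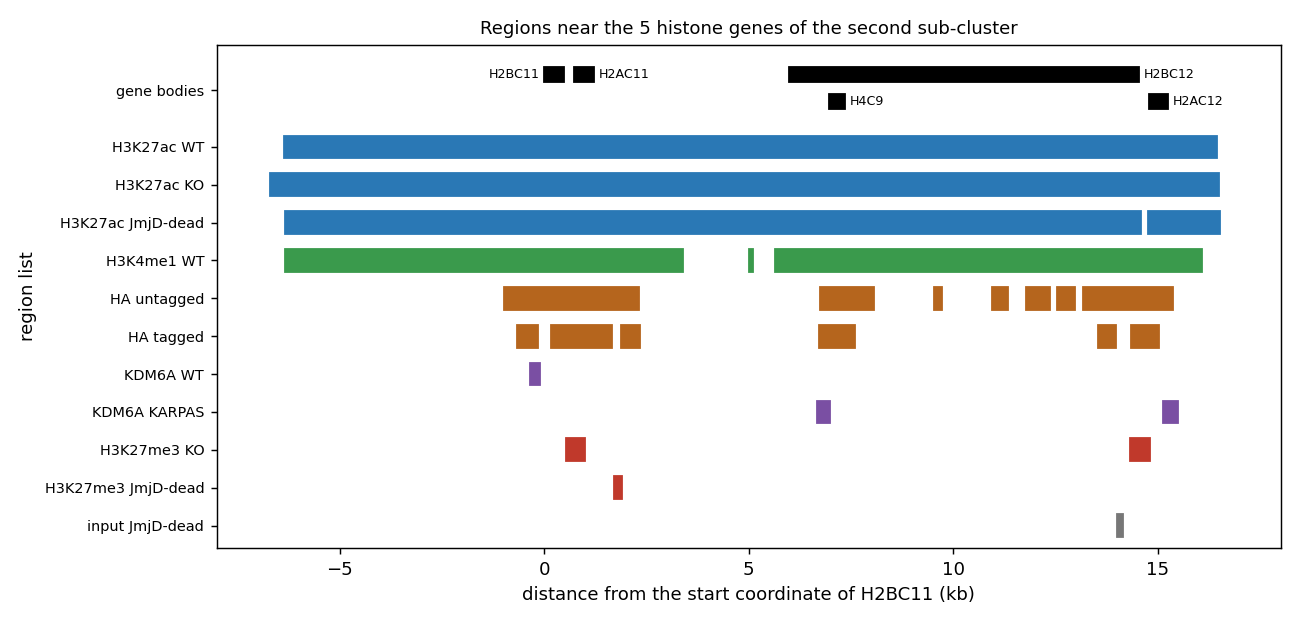
Regions (bars) near the 5 genes of the second sub-cluster are drawn to scale against the distance in kb from the start coordinate of H2BC11, 1 row per list, with gene bodies in black; lists with no region there are left out. H3K27ac spans the whole sub-cluster in 1 region of 22.8 kb in WT and 23.2 kb in KO, while the HA, KDM6A and H3K27me3 regions are short.

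At the other end of the scale were members on narrower regions with lower fold enrichments. H2BC6 rested on regions of 225, 230 and 226 bp in WT, KO and JmjD-dead, with fold enrichments of 5.58, 7.90 and 6.29. H2AC16 and H1-5 shared regions of 549, 554 and 623 bp with fold enrichments of 7.45, 8.31 and 13.8. The pair H2BC8 and H2AC8 had a WT region of 1888 bp with a fold enrichment of 15.6. In KO the pair rested on 1 region of 598 bp with a fold enrichment of 5.40, which began beyond the stretch between the genes. In JmjD-dead it had 2 regions, the larger of 1824 bp with a fold enrichment of 24.8. H2BC8 was the 1 member whose promoter window was marked in WT and not in KO, and H3C1 the 1 member with the opposite change.

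All 8 H2A-H2B pairs had both genes marked and shared a region in WT, KO and JmjD-dead. With 193 to 247 bp between the bodies, a region within 1 kb of 1 gene is mostly near its partner too. Sharing thus follows largely from the rule. With a 0 kb window, 7, 6 and 5 pairs shared a region in WT, KO and JmjD-dead. The stretch between the genes lay wholly under 1 region in 7 WT pairs, 6 KO pairs and 5 JmjD-dead pairs. In the others, regions stopped inside the stretch or short of it. At H2BC4 and H2AC6 in JmjD-dead, regions of 3024 and 3448 bp flanked it and covered 52 of its 245 bp. The other JmjD-dead exceptions were H2BC8 and H2AC8 (81 of 232 bp) and H2AC14 and H2BC14 (45 of 244 bp). In WT the exception was H2BC13 and H2AC13 (62 of 243 bp), in KO H2BC8 and H2AC8 (0 of 232 bp) and H2AC17 and H2BC17 (45 of 239 bp). Of the 44 other pairs of neighbouring members, which lie farther apart or overlap, 15, 16 and 16 shared a region.

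H3K4me1 in WT followed H3K27ac closely. It marked 42 of 53 members (71.7% of all genes) and 36 of 48 promoter windows (58.1% of all windows). Those 36 windows were the 36 marked by H3K27ac, where over all genes 8661 of 8724 H3K27ac windows (99.3%) carried H3K4me1. Sub-clusters had 24 of 32, 5 of 5 and 13 of 16 members marked. The unmarked members were the 9 of WT H3K27ac plus H2BC6 and H1-5. The best-ranked regions lay over H2BC11 and H2AC11 (rank 108 of 95729, fold enrichment 117), over H2BC12, H4C9 and H2AC12 (rank 197, 101) and over H3C7 and H2BC9 (rank 298, 92.7). All 8 pairs shared a region.

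In KO, H3K4me1 regions were nearly gone from the array, as they were from promoters across the genome. It marked 2 of 53 members (49.6% of all genes) and 0 of 48 promoter windows (3.46% of all windows). Of the 42 members marked in WT, 40 (95.2%) were unmarked in KO, against 39.9% of all genes by the same rule. By promoter windows, 36 of 36 members lost the mark against 96.4% of all 9187 marked windows, so the members' share was near the background. The KO and WT lists differed as a whole. On chromosome 6 lay 1.36% of the KO regions against 4.59% in WT, and 58.3% of the other chromosome 6 genes marked in WT were unmarked in KO. By the gene-body rule, 27.4% of all genes whose WT region ranked at or above the members' median were unmarked in KO. Of these genes, 41 of 108 others on chromosome 6 and 20 of 21 members were unmarked. Longer bodies leave more room for a KO region, so no loss particular to members is read from these counts. The WT list in turn met 58.1% of all promoter windows and 99.3% of those with WT H3K27ac. With 1 library per genotype, which list is unusual for this mark cannot be told. What sets the WT and KO libraries apart, and its part in the change at members, was not tested.

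The 10 lost members with the highest WT ranks were H2BC11, H2AC11, H2BC12, H4C9, H2AC12, H3C7, H2BC9, H3C8, H2BC10 and 1 of the tied pair H2AC15 and H2BC15. The 2 members left in KO were H2BC4, with a region of 128 bp and a fold enrichment of 3.17, and H4C5, with 138 bp and 4.07. They ranked 78718 and 47851 of 80845. H2BC4 was marked without its partner H2AC6, and no pair shared a region in KO.

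**Figure D3:**
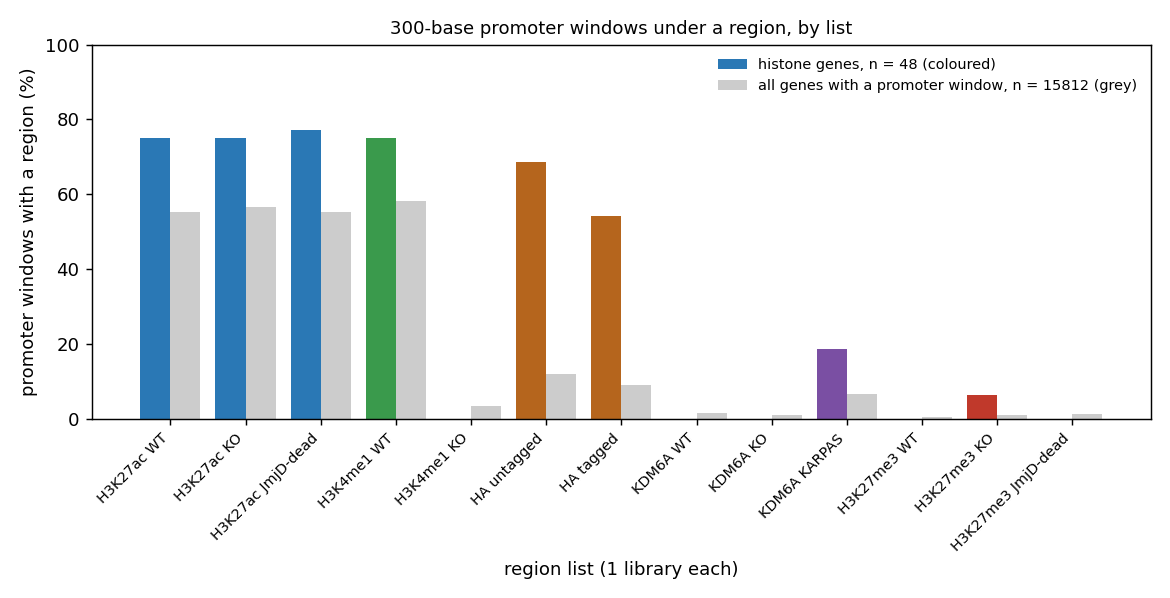
Bars give the percent of 300-base promoter windows under a region in each of 13 lists, for 48 histone genes (coloured by antibody) and all 15812 genes with a window (grey). Histone genes reach 68.8% and 54.2% with the HA antibody in the untagged and tagged lines, against 12% and 9.05% of all windows, and H3K4me1 in KO is at 0% against 3.46%.

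Few H3K27me3 regions were called near members in any genotype. No member was marked in WT, 4 were in KO and 3 in JmjD-dead, against 22.9%, 16.5% and 35% of all genes. Over promoter windows, where gene length plays no part, 0, 3 (6.25%) and 0 of 48 members were marked, against 0.436%, 1.01% and 1.13% of all windows. With shares this low over all windows, a count of 0 in 48 cannot show a shortage at members, and none is read. The KO regions were both in the second sub-cluster. One of 468 bp lay over most of the stretch between H2BC11 and H2AC11 and the start of the H2AC11 body, within 1 kb of both genes (fold enrichment 4.76, rank 10056 of 11865), and one of 477 bp lay over the stretch between H2BC12 and H2AC12 (6.12, rank 4785). H2BC12, an H2B gene with H4C9 inside its body, and H2AC12 are 247 bp apart.

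In JmjD-dead the regions were at H4C1 (329 bp, fold enrichment 3.94), H1-3 (282 bp, 4.50) and H2AC11 (196 bp, 3.37), the last without its partner H2BC11. They ranked 31844, 23192 and 36531 of 37236. With no member marked in WT, 4 of 53 gained a region in KO and 3 of 53 in JmjD-dead, where 8.78% and 23.3% of all unmarked genes did. The 5 regions rested on pileups of 5 to 8 fragments. All 5 overlapped a H3K27ac region of KO. H2AC11 was the 1 member marked in both KO and JmjD-dead.

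The KDM6A antibody gave few regions near the chromosome 6 members in ARP1. It marked 0 members in KO (10.7% of all genes) and 4 in WT, H1-3, H2BC11, H2AC11 and H4C12 (28.1%). All 4 rested on WT regions that overlapped no region of the KO list (26% of all genes). The region at H1-3 was 312 bp with a fold enrichment of 4.25, that at H4C12 458 bp with 4.25, and that shared by H2BC11 and H2AC11 250 bp with 3.72. They ranked 73292, 73300 and 84025 of 90964. No member had a WT or KO region over its promoter window, where 1.42% and 1.03% of all windows did. At shares this low, 0 of 48 windows cannot show a shortage. The counts by gene body favour long genes, so no shortage at members is read from either. The 3 regions overlapped H3K27ac, H3K4me1 and HA regions of WT.

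In KARPAS the same antibody marked 15 of 53 members (41.3% of all genes) and 9 of 48 promoter windows (6.6% of all windows). The sub-clusters had 10, 3 and 2 members marked, and by class there were 5 H4, 4 H2B, 3 H3, 2 H2A and 1 H1 genes. The best-ranked regions were at H2BC12 and H4C9 (fold enrichment 6.90, rank 17277 of 55867), H1-3 (6.10, rank 20959) and H2BC12 and H2AC12 (6.10, rank 20961). The marked members' median rank was 38344, against 15113 over all marked genes. Of the 8 pairs, H2AC7 and H2BC7 were the 1 with both genes marked and a shared region; H2BC12 and H2AC12, counted apart from the 8, also shared one, and H2BC4 was marked without H2AC6. H1-3 and H4C12 were marked in both ARP1 WT and KARPAS. The lines differ in more than KDM6A and were not tested against each other.

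The HA antibody marked histone genes in the line whose title names no tag as well as in the tagged line. In the untagged line it marked 38 of 53 members (28% of all genes) and 33 of 48 promoter windows (12% of all windows). The tagged line had 31 marked members (34.5%) and 26 windows (9.05%). Of 36 regions near members in the tagged line, 35 overlapped a region of the untagged line. Only H3C1 and H4C1, which share a region, had a tagged-line region that met no untagged one (30.6% of all genes), and both also had an untagged region nearby. Nearly all tagged-line HA regions at these genes thus had a counterpart in the line labelled wild type.

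Many members had an untagged region among the strongest of its list, while other regions near members were weak. The median best rank of the 38 members was 723.5 of 78725, against 39295 over all marked genes, and 17 of the 41 regions near members were in the first 1000. H1-2 led with rank 128 and a fold enrichment of 41.7, H1-3 followed with 133 and 40.3, and H2BC11 and H2AC11 shared rank 137 with 39.0. At the other end, H3C1 and H4C1 shared a best region of rank 63741 (4.03), and that of H4C4 ranked 39275 (4.93). In the tagged line the median was 14626 of 54338, against 15781 over all marked genes. There H1-2 had rank 3118 (12.9), H2BC12 and H4C9 shared rank 4147 (11.5), and H1-3 had rank 4497 (11.1). No region near a member in the tagged line was in the first 1000.

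HA regions in both lines sat on promoters that carried H3K27ac. Of the 36 H3K27ac windows, 33 had an untagged region (91.7%, against 21.1% of all H3K27ac windows) and 26 a tagged one (72.2%, against 15.7%). None of the 12 windows without H3K27ac had one, near the low shares over all such windows (0.635% untagged and 0.903% tagged). The 3 H3K27ac windows without an untagged HA region were those of H2BC8, H2AC8 and H2AC16. In the untagged line the 15 unmarked members were the 9 of WT H3K27ac plus H2BC6, H2BC8, H2AC8, H3C8, H2AC16 and H1-5. In the tagged line H4C4, H2BC13, H2AC13, H3C10, H2AC14, H2BC14 and H3C12 were also unmarked. By sub-cluster the untagged line marked 21, 5 and 12 members and the tagged line 20, 5 and 6. Of the 8 pairs, 7 shared an untagged region and 5 a tagged one.

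**Figure D4:**
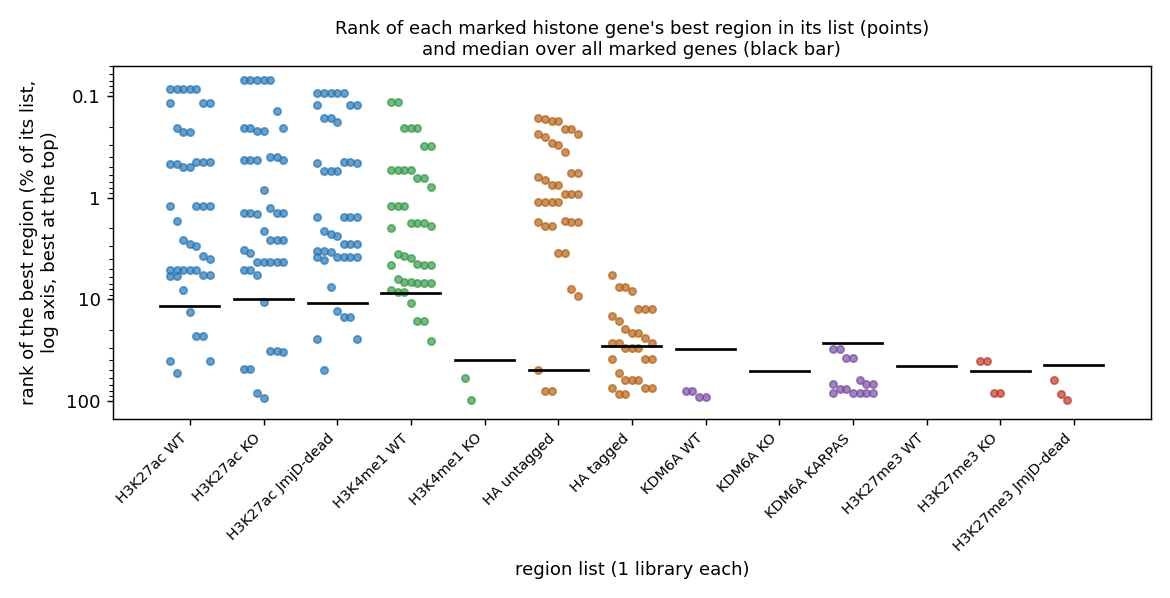
Each point is a marked histone gene's best region, placed by its rank as a percent of its own list on a log axis with the best rank at the top; black bars are the medians over all marked genes. Ranks are read within a list only; in the untagged HA list the members' median rank is 0.919% of the list against 49.9% over all marked genes.

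HA summits lay close to the start. The highest untagged summit within 1 kb of the start lay at a median of 84 bp into the gene (n = 33 members) and the highest tagged one at 64 bp (n = 27). The highest H3K4me1 summit in WT lay at 314 bp (n = 37), and 4 of these 37 were within 250 bp of the start against 27 of 33 for untagged HA. In a pair the highest summit can belong to the partner gene, which gives values before the start.

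**Figure D5:**
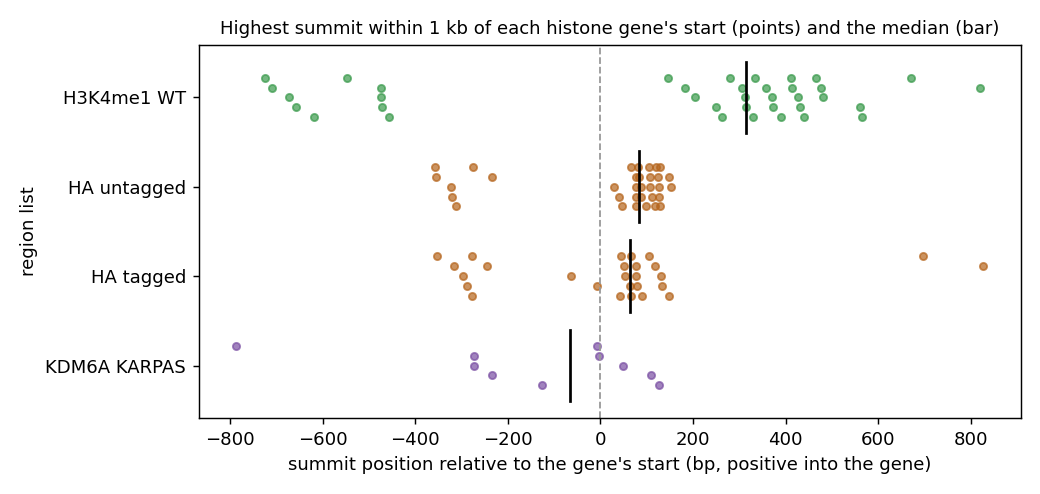
Points give the position of the highest summit within 1 kb of each histone gene's start, in bp, positive into the gene, for 4 lists, with the median as a black bar. The HA summits centre at 84 and 64 bp, and the H3K4me1 summits lie on either side of the start, 4 of 37 within 250 bp, with a median of 314 bp.

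Input libraries were shallow and met few members. The WT list met 0 members, the KO list 4 and the JmjD-dead list 2, against 7.79%, 16% and 5.1% of all genes. The KO members were the pairs H2AC14 with H2BC14 and H2AC17 with H2BC17, and the JmjD-dead members were H2BC12 and H2AC12. Each input region rested on a pileup of 2 fragments.

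Of 19 histone genes outside the array, most of them on chromosome 1, 13 (68.4%) carried H3K27ac in each ARP1 genotype. That was near the shares over all genes given above for that mark. Their ranks were nonetheless higher up than those of the chromosome 6 members. The median best H3K27ac region held rank 20 for WT, and rank 23 for both mutants. Several of these genes shared a region. H3K4me1 was near 13 (68.4%) in WT, against 71.7% of all genes, and near 7 (36.8%) in KO, against 49.6%. The median best H3K4me1 rank in WT was 54, again higher up than the members' median. H3K27me3 was near 4 of them in WT (21.1%), near 11 in KO (57.9%) and near 12 in JmjD-dead (63.2%). The shares over all genes were 22.9%, 16.5% and 35%, in that order. Of the 15 without it in WT, 7 gained it in KO (46.7%) and 8 in JmjD-dead (53.3%). Among all unmarked genes, 8.78% and 23.3% did. The 7 were gained in both mutants: H3C13, H4C14, H2AC18, H2AC19, H2BC21, H2AC20 and H2AC21. These gains are not independent. H2BC21, H2AC20 and H2AC21 had the same best KO region, and H2AC20 and H2AC21 the same best JmjD-dead region. A WT input region lay near H4C15, H2AC19 and H3C15. The KDM6A antibody met 11 in ARP1 WT (57.9%), 6 in KO (31.6%) and 13 in KARPAS (68.4%), against 28.1%, 10.7% and 41.3% of all genes. The HA antibody met 13 in the untagged line (68.4%, against 28%), with a median best rank of 88 of 78725, and 12 in the tagged line (63.2%, against 34.5%), with 2790.5 of 54338. In both HA lists these medians were higher up than those of the chromosome 6 members. The unmarked ones include H2AC1 and H2BC1, 2 genes known from the testis.

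Among the genes whose products supply histones, each of the 3 genotypes had H3K27ac at 23 of 23 listed genes, against 67.5% to 69.9% of all genes, and none was lost, where the losses over all genes were 2.1% and 2.65%. The list includes NPAT, SLBP, the octamer factor gene POU2F1 and the chaperone genes ASF1A, ASF1B and NASP. H3K4me1 was near 23 in WT and 15 in KO, a loss of 34.8% against 39.9% of all genes marked in WT, with NASP, SLBP, LSM10, CASP8AP2, ASF1A and ERI1 among the 8 lost. H3K27me3 was near 8 of the 23 in WT (34.8%), near 6 in KO (26.1%) and near 14 in JmjD-dead (60.9%), against 22.9%, 16.5% and 35% of all genes. SLBP and NPAT were among the 8 of 15 unmarked genes (53.3%) that gained it in JmjD-dead, against 23.3% of all unmarked genes. In KO 2 of 15 gained it (13.3%, against 8.78%). Of 12 variant histone genes, 11 carried H3K27ac in WT and JmjD-dead (91.7%) and 10 in KO (83.3%). The shares over all genes were 67.5% in WT, 67.8% in JmjD-dead and 69.9% in KO. The 1 of 11 lost in KO (9.09%, against 2.1% of all genes marked in WT) was MACROH2A2. Its WT region was weak, at rank 50359 of 69127.

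In units of 1000000, the H3K27ac libraries held 25.6 to 31.2 fragments, the H3K27me3 libraries 5.03 to 10.4, the H3K4me1 libraries 25.6 and 34.0 and the input libraries 0.223 to 0.725. The KDM6A and HA libraries held 11.9 to 37.4 tags. All 8 plasma cell marker genes carried H3K27ac in each ARP1 genotype. Of 13 markers of other cell types, 6, 5 and 4 did in WT, KO and JmjD-dead (46.2%, 38.5% and 30.8%). The shares over all genes were 67.5%, 69.9% and 67.8%. The lists do not check the genotype: the KDM6A gene had an H3K27ac region in all 3. With the HA antibody its best region ranked 384 of 78725 in the untagged line and 24930 of 54338 in the tagged line. What lies behind this difference was not tested, and the name untagged rests on the title alone. The share of cells that carry a mark and its amount per cell cannot be told apart in such lists.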

How the data were processed

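Chromatin was fixed, sonicated and immunoprecipitated, per the labels' protocols, which name the H3K27ac, H3K27me3 and KDM6A antibodies; which H3K4me1 and HA antibodies were used is not stated there. The submitters' processing notes name Trimmomatic, FastQC, MultiQC, Bowtie2, MACS, MACS2 2.1.2 and GRCh38. Per the file headers, the authors called regions in each library alone, against a genome-wide background without a control sample, with a q-value threshold of 0.05. The headers name MACS 2.2.7.1 for input, H3K27ac and H3K27me3 and 2.1.1.20160309 for the other lists. HA and KDM6A lists were called from tags extended to 200 bp and the rest from paired fragments. The lists hold, per the file headers, a pileup (signal) at the summit, a ratio (fold enrichment over the expected level) and −log10 p- and q-values.

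Regions with the same coordinates were merged, kept on the autosomes and chromosome X, and ranked by −log10 q, then fold. Gene positions came from RefSeq (GRCh38.p14). Members and lists were chosen with earlier results of these data known. Members named are those whose state differs between genotypes (at most 10), those unmarked in a list that marks most members, the 3 best ranked in each list, and pairs whose genes differ. H2BC6, H2AC16, H1-5 and H2BC8 with H2AC8 were also singled out after their values were seen. There was 1 library a group, so nothing was tested; the 4 mouse lists were not analysed here. The overlap code was tested on simulated data. Python 3.11.15, numpy 2.4.6, pandas 2.3.3 and matplotlib 3.10.9 were used. Alternatives covered the q-value, the window, list length, input regions and the promoter window.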

Additional observations from a re-analysis of the deposited data

How the results depend on the processing

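No paired analysis was possible because each group has 1 library. Of 178 counts recomputed, 128 stayed within 1.5 times the count reported. These 128 include many counts of 0 that stayed 0, so the tally says little of how stable the other counts are. The promoter window was chosen after seeing the data. With H3K27ac, KO gains (2) were 0 at a −log10 q of at least 5, 0 with a 2.5 kb window, and 1 with a 0 kb window, equal list lengths or promoter windows. KO losses (0) were 1 with a 0 kb window or promoter windows, and JmjD-dead gains (0) were 1 with promoter windows. Removing regions that touch an input region, which drops wide regions whole, gave 4 gains and 2 losses in KO and 5 gains and 1 loss in JmjD-dead. With H3K27me3, JmjD-dead members and gains (3) were 0 at the stricter q, at 0 kb, at equal lengths and over promoters, and 6 at 2.5 kb; KO members and gains (4) were 2 at the stricter q. With H3K4me1, KO members (2) were 0 at the stricter q and over promoters, 1 at 0 kb and 5 at 2.5 kb. With the KDM6A antibody, WT and WT-only members (4) were 0 at the stricter q, at equal lengths and over promoters, and 1 at 0 kb; KARPAS members (15) were 5 at the stricter q and 9 over promoters. Members with a tagged-only HA region (2) were 0 at the stricter q, at 0 kb and over promoters, 6 without input regions and 5 when a region counted as shared only at 50% coverage. Pairs sharing a region fell to 2 (tagged HA, from 5) and 5 (JmjD-dead H3K27ac, from 8) at 0 kb, and to 0 at the stricter q or 0 kb for KO H3K27me3 and WT KDM6A and at the stricter q for KARPAS, from 1 each. The cause of these moves was not tested. Shallow H3K27me3 and input libraries limit what those lists can show, and a count of 0 there is not absence.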

Other observations

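H3K27ac regions inside the first sub-cluster but more than 1 kb from any member had lower fold enrichments than those near members. They numbered 7 (WT), 10 (KO) and 12 (JmjD-dead), with median fold enrichments of 4.47, 4.16 and 4.13, beside 61.1, 53.6 and 62.9 for the 18, 19 and 19 regions near members of the same lists. In the third sub-cluster 5, 2 and 5 lay away from members, with medians of 4.84, 3.32 and 5.11 beside 35.2, 52.4 and 15.7 near them, and in the second there were none. WT H3K4me1 had 9, 1 and 7 such regions in the 3 sub-clusters, with medians of 4.05, 6.88 and 3.24 beside 39.3, 100.8 and 20.7 near members. H3K27ac covered 25.7%, 28.3% and 27.3% of the first sub-cluster, 100%, 100% and 99.1% of the second and 37.3%, 38.9% and 37.8% of the third, each taken with 1 kb on either side. Untagged HA regions covered 7.32%, 50.2% and 9.07% of the 3, and tagged ones 3.52%, 25.9% and 3.04%.

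In KARPAS, 6 of the 14 KDM6A regions of the first sub-cluster lay away from members, with a median fold enrichment of 4.78 and a highest of 17.5, beside a median of 4.24 for the 8 near members. The single H3K27me3 region that WT had within the 3 sub-clusters lay away from members, in the first, with a fold enrichment of 4.44.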
